A study of Mus musculus with 4 samples.

Results

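The genes examined here encode fibronectin and cell-surface proteins that bind it or neighbouring matrix, and they were chosen by name: Fn1, Itga5, Itgav, Itgb1, Itgb5, Itga11 and Cd44, which are 7 of 21887 protein-coding genes in the RefSeq table of GRCm38.p6. For each gene, the listed RNA polymerase II (Pol II) peaks inside its boundaries or within 10 kb of them were collected from both deposited peak lists. The peaks come from ChIP-seq, which sequences the DNA pulled down with a protein, here by an antibody against Pol II. The cells were primary osteoblasts from young mice, grown out of bone pieces, passaged 3 times as marrow stromal cells and held in osteogenic medium for 3 days. One library, titled WT osteoblasts, is called untreated here, and the other, titled as treated with OSS_128167, comes from cells given this inhibitor of the deacylase SIRT6. The treatment field nevertheless names OSS_128167 for all 4 samples of the series, so the untreated group rests on its title. No source used here gives the dose or duration, and the input library of each condition was not analysed here as a sample of its own. With 1 library per condition there is no replicate check, so the values below describe 2 libraries and nothing was tested between conditions.

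Fibronectin is a large secreted glycoprotein that cells pull into fibrils, and in bone it is an early scaffold on which collagen and osteoblasts are organised. Integrins are receptors made of 1 alpha and 1 beta chain. Alpha5 with beta1 is the classical fibronectin receptor, and alphav with beta1 or beta5 binds fibronectin or vitronectin. Alpha11 pairs with beta1 and is a receptor for fibrillar collagen rather than fibronectin, and CD44 is chiefly the receptor for hyaluronan. Transcribing Pol II can lie over a whole gene, and it continues past the site where the RNA is cleaved before it leaves the DNA.

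In the OSS_128167 list, Pol II peaks lay densely over Fn1, less densely over Cd44, and thinly or not at all over the integrin genes. The covered share, which is the part of a gene's bases inside any listed peak, was 64.8% for Fn1, 11.4% for Cd44, 1.42% for Itga11, 1.06% for Itgb5, 0.383% for Itgav, 0% for Itga5 and 0% for Itgb1. Fn1 thus stood above the other 6 genes examined, and the chains of the classical fibronectin receptor, Itga5 and Itgb1, had no listed peak inside. In the untreated list the covered share was 0.301% for Fn1 and 0% for each of the other 6 genes. That list held 1694 peaks against 40748 in the OSS_128167 list, and its peaks are few at genes in general.

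The number of these genes with any peak has to be read against all genes. All 7 had a peak inside or within 10 kb in the OSS_128167 list, where 53.9% of protein-coding genes and 68.4% of the 10039 protein-coding genes of at least 20 kb had one. A peak inside the gene was listed for 5 of 7, against 34.4% and 54.5%. A gene-end peak, meaning one that reaches within 1 kb of either boundary, was listed for Fn1 and Cd44, 2 of 7, against 14.1% and 12.9%. These counts exceed the shares of long genes by a few genes, and nothing particular to the 7 is read from them. Coverage over at least 50% of the gene was found in 1 of 7, against 0.681% of all protein-coding genes and 0.0498% of those of at least 20 kb. With peaks limited to a false discovery rate (FDR, the authors' adjusted p-value of a peak) of at most 0.05, 5 of 7 genes had a peak inside or within 10 kb, against 18.3% and 22.4%. Fn1 and Cd44, 2 of 7, had one inside at that limit, against 9.97% and 14.2%, and both had a gene-end peak, against 5.22% and 3.93%. At 1e-05 the genes with a peak inside or within 10 kb were again Fn1 and Cd44, against 2.18% and 1.55%. In the untreated list 1 of 7 had a peak inside or within 10 kb, against 3.13% and 4.95%, and that peak, at Fn1, lay inside it, against 2.17% and 4.11%.

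**Figure D1:**
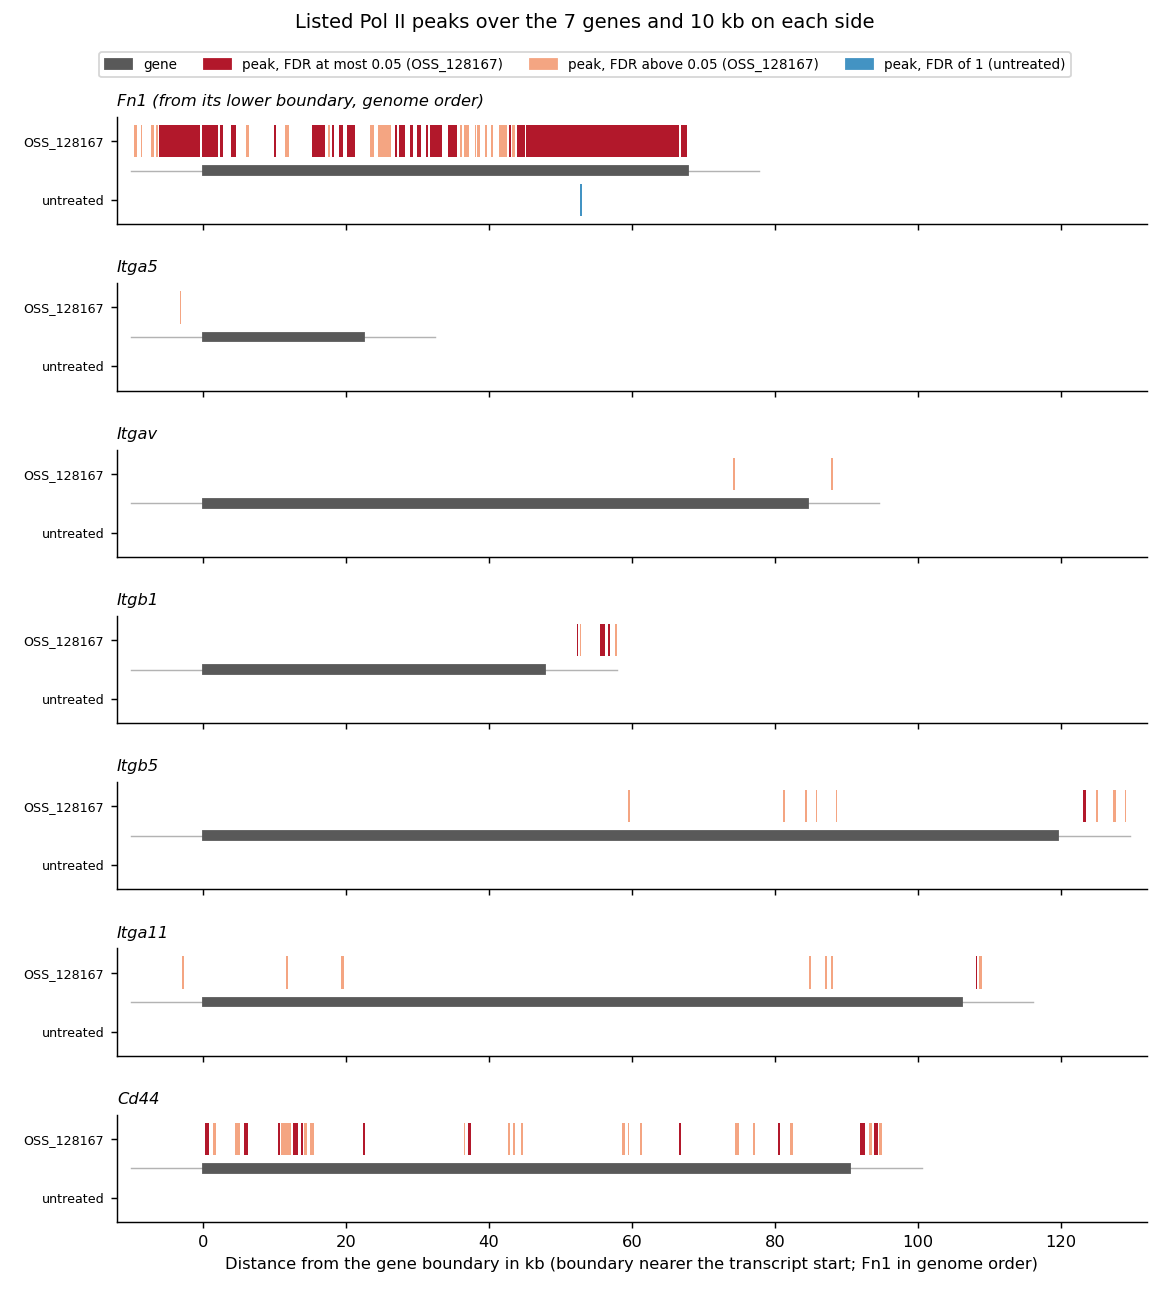
Positions of all listed peaks over each gene (grey bar) and 10 kb on each side (grey line), in kb from the gene boundary nearer the transcript start; Fn1 is drawn from its lower boundary in genome order. Peaks of the OSS_128167 list lie above each gene and those of the untreated list below it, and Fn1 carries 32 peaks inside the gene while Itga5 and Itgb1 carry 0.

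Fn1 was covered unevenly, with its densest part at the higher coordinates. The gene lies on chromosome 1 from 71585473 to 71653280 (GRCm38) and is 67808 bp long. As background, mouse Fn1 is transcribed from the higher towards the lower coordinate, so the higher boundary is the transcript start. The tables used here give no strand for it, and its values are therefore in genome order. In the OSS_128167 list 32 peaks lay inside it, 19 of them at an FDR of at most 0.05, and these covered 43915 bp. The longest peak ran over 21359 bp from 71630710 to 71652068, with a fold enrichment of 7.23, an FDR of 5.3e-25 and a pileup (peak height of stacked signal) of 51. It made up 31.5% of the gene and 48.6% of the covered bases. Next to it, at the higher boundary, lay a peak of 886 bp from 71652349 to 71653234 with the highest fold of all peaks at these 7 genes, 8.19 (FDR 2.89e-17). Together these 2 peaks covered 98.6% of the last 22.6 kb before the higher boundary.

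Below that stretch the coverage of Fn1 broke into short peaks. There 30 peaks with a median length of 492 bp and folds from 2.08 to 5.03 covered 47.9% of the remaining gene, and 17 of the 30 had an FDR of at most 0.05. Among 20 equal bins of the gene, the covered share was lowest in bin 3 from the lower boundary, at 7.37%, while it was 79.5% in bin 1 and 100% in bins 15 to 19. The higher-coordinate 10 bins were covered over 84.7% and the lower 10 over 44.8%. The longest stretch without a peak was 3.45 kb, from 71591944 to 71595393.

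Coverage continued past the lower boundary of Fn1 and stopped at its higher one. In the 10 kb below the gene 71.6% of bases were covered by peaks, in the 10 kb above it 0%. A peak of 5677 bp from 71579389 to 71585065 (fold 6.77, FDR 3.57e-10) began 408 bp below the boundary. All 5 of the peaks wholly outside Fn1 on this side touched Atic, which encodes a purine synthesis enzyme and ends at 71579403. The longest of them overlapped the end of Atic, and Atic as a whole was covered over 7.37%. Atic lies on the plus strand and runs towards Fn1, so Pol II of the 2 genes cannot be told apart there. Apol7d, a long non-coding RNA gene that begins 55 bp above Fn1, had no peak in either list.

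The untreated list held a single peak at Fn1. It measured 204 bp, from 71638290 to 71638493, with a fold of 3.11, an FDR of 1 and a pileup of 7.06. It lay inside the 21359 bp peak of the OSS_128167 list, and it was the 1 peak of that list within 10 kb of any of the 7 genes. The fold of a peak is the authors' ratio within its own list, so 3.11 and 7.23 are not compared. A weaker pull-down in the untreated library and more Pol II on the gene after OSS_128167 cannot be told apart.

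**Figure D2:**
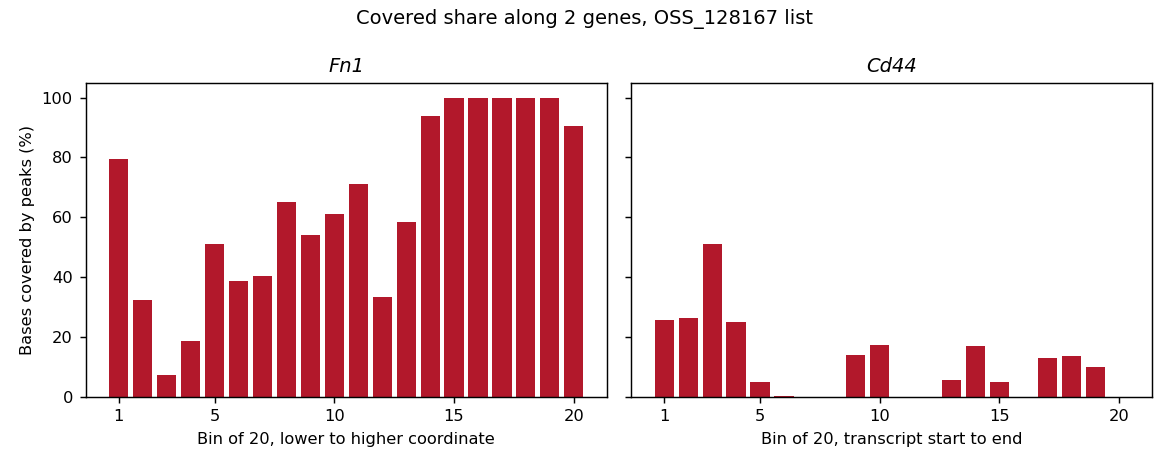
Share of bases covered by OSS_128167 peaks in 20 equal bins of Fn1 (lower to higher coordinate) and of Cd44 (transcript start to end); each bar is 1 bin of 1 library. In Fn1 bins 15 to 19 are covered over 100%, and in Cd44 the highest bin is bin 3 at 51.1%.

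Genes nearest to Fn1 in binned covered share were genes of a growth factor receptor and of secreted, matrix or cytoskeletal proteins. Likeness was the mean absolute difference in covered share over the 20 bins in 1 library, taking the better of both directions, among protein-coding genes that span 20 kb or more and hold a peak. Fgfr2, which encodes a fibroblast growth factor receptor, was nearest at 19.7 percentage points. It was followed by Ptn, a secreted heparin-binding growth factor, at 28.1, Postn, a matricellular protein, at 30.9, Col1a2, a chain of type I collagen, at 32.7, and Tpm1, an actin-binding tropomyosin, at 33.3. Fgfr2, Ptn, Postn and Col1a2 matched Fn1 in the same direction and Tpm1 in the reversed one. Because Fn1 was read in genome order and either direction was allowed, likeness does not place the dense parts at the same transcript end. These differences are wide, so no gene had closely the same profile. The measure counts the level of coverage as well as its position. Col1a2, Tpm1, Fgfr2 and Postn are also the only other genes of at least 20 kb covered over at least 50%. Likeness is therefore not read as a shared position of the dense part. By covered share Fn1 ranked 3 among the 10039 genes of at least 20 kb, after Col1a2 at 97.4% and Tpm1 at 65.7%, and just above Fgfr2 at 64.4%. By number of peaks inside it ranked 18.

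**Figure D3:**
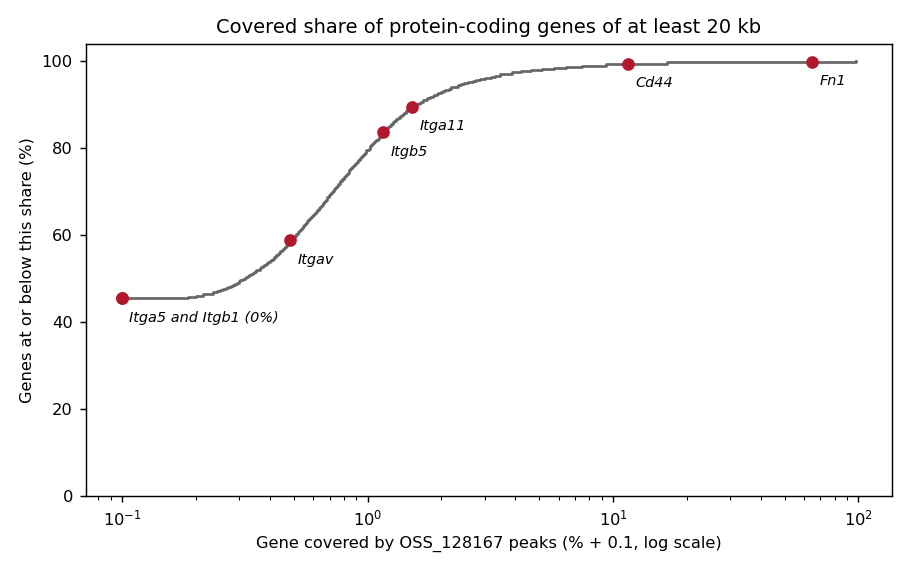
Cumulative share of the 10039 protein-coding genes of at least 20 kb (vertical axis, %) at or below a given covered share in the OSS_128167 list (horizontal axis, % plus 0.1, log scale), with the 7 genes as red points. Fn1 at 64.8% and Cd44 at 11.4% lie at the upper end, and Itga5 and Itgb1 at 0%.

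Itga5 and Itgb1, the alpha and beta chains of the classical fibronectin receptor, were both free of listed peaks inside the gene. Itga5 (chromosome 15, 103344286 to 103366791, minus strand) had 0 peaks within 10 kb in untreated cells and 1 with OSS_128167. That peak of 226 bp lay 3.02 kb upstream of the gene, with a fold of 2.58 and an FDR of 0.503, so it had no support after correction. Itgb1 (chromosome 8, 128685654 to 128733579, plus strand) had 0 and 5 peaks within 10 kb. All 5 lay downstream of its end, between 4.36 and 9.74 kb from it, and 3 of them had an FDR of at most 0.05. The highest, of 606 bp from 128741246 to 128741851, had a fold of 3.77 and an FDR of 0.00852.

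The peaks past Itgb1 all lay within LOC108167564, a long non-coding RNA gene on the minus strand from 128734234 to 128753534 that runs towards Itgb1. This gene held 8 OSS_128167 peaks and was covered over 16.1% of its length. Peaks carry no strand, so Pol II running on from Itgb1 and Pol II of the non-coding gene cannot be told apart. The 10 kb limit cut through this run of peaks, since the outermost peak counted lay at 9.74 kb (fold 2.26) and the next at 10.56 kb (fold 2.77). A downstream peak with none inside was listed for 9.85% of the 7948 protein-coding genes that span 20 kb or more and have a known strand.

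The promoter of Itgb1 is shown with that of Cd44, because neither window held a listed peak although Cd44 had peaks close behind its start and Itgb1 had none over its whole length. Both sequences come from RefSeq (GRCm38.p6), read 5′ to 3′ on the gene's strand from 250 bases before to 50 after the start, and capitals mark GGGCGG, a GC box, on either strand. Itgb1 spans chr8:128685404-128685703 (plus strand) and Cd44 chr2:102901616-102901915 (minus strand).
Itgb1: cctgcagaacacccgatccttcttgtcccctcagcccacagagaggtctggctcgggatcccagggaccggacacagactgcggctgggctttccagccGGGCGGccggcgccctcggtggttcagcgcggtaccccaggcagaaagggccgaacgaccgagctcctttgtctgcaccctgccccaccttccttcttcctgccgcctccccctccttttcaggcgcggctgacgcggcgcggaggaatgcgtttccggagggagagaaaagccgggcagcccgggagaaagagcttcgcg
Cd44: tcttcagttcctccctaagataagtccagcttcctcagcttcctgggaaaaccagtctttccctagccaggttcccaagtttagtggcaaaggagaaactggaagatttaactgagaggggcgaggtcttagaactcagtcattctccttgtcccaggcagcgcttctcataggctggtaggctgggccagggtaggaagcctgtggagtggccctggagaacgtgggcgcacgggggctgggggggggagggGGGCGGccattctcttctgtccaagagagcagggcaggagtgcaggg
Each sequence holds 1 match to GGGCGG, which begins 3 bases after the start in Cd44 and 151 bases before it in Itgb1. GGGCGG was found in 5 of the 6 promoters of these genes in the table, Itga11 being the one without, and in 46.2% of 21263 promoters of protein-coding genes. Of the other motifs searched on both strands, the TATA box (TATAAA) was found in 12.6% of all promoters, the CCAAT box (CCAAT) in 38.2%, the AP-1 site (TGANTCA) in 6.99% and the cAMP response element (TGACGTCA) in 2.23%. None of these had a match in the 6 promoters, so no match overlapped another motif. No promoter of the 6 held a peak in either list. The share of all promoters with a peak was not counted, so nothing is read from this.

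Cd44, the hyaluronan receptor, was the only receptor gene among the 7 with peaks inside it at an FDR of at most 0.05. It lies on chromosome 2 from 102811141 to 102901669 on the minus strand and spans 90529 bp. The untreated list had 0 peaks inside or within 10 kb, and the OSS_128167 list had 24 inside, of which 9 had an FDR of at most 0.05. Their folds ran from 2.13 to 3.75, with a median of 2.90, and their lengths reached 1345 bp, with a median of 344 bp. Cd44 was thus covered by many short peaks, with no broad one like that of Fn1. By covered share it ranked 51 among the genes of at least 20 kb, and by number of peaks 41.

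Coverage of Cd44 was highest in the part next to its start. The first 4 of its 20 bins, 18.1 kb in length, were covered over 32.0%, with 10 peaks, and the other 16 over 6.26%, with 14 peaks. An FDR of at most 0.05 was reached by 5 of the 10 and 4 of the 14. The peak nearest the start began 246 bp inside the gene and measured 648 bp (fold 3.28, FDR 0.0128). The longest stretch without a peak was 13.82 kb, from 102865201 to 102879020. Gm23731, a small nuclear RNA gene inside Cd44 from 102897960 to 102898066, was overlapped by no peak in either list.

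Past the end of Cd44 lay its strongest peak. In the 10 kb downstream 4 OSS_128167 peaks covered 20.4% of bases, and upstream the share was 0%. The nearest, 1.43 kb past the end, ran over 627 bp from 102809086 to 102809712 with a fold of 5.52, an FDR of 5.8e-07 and a pileup of 17. No other annotated gene lies there. Its fold was above those of all 24 peaks inside the gene.

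Itgav, Itgb5 and Itga11 had scattered low peaks. Itgav, the alphav chain shared by several receptors (chromosome 2, 83722303 to 83806917, plus strand), had 0 untreated peaks inside and 1 with OSS_128167. That peak lay 74.1 kb from the gene boundary nearer the transcript start, with a fold of 2.41 and an FDR of 0.676. Itgb5, the beta5 chain (chromosome 16, 33829665 to 33949338, plus strand), had 0 and 5 peaks inside, with OSS_128167 folds from 2.16 to 3.23. Itga11 (chromosome 9, 62677855 to 62783979, plus strand) had 0 and 5, with folds from 2.41 to 3.23. The lowest FDR among these 11 peaks was 0.159, and the longest measured 407 bp.

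Within these genes the low peaks were grouped. In Itgb5 the part up to 59.5 kb from the start held none, and 4 of the 5 lay between 81.17 and 88.74 kb. In Itga11 2 lay between 11.65 and 19.76 kb and 3 between 84.79 and 88.19 kb, with 65.03 kb free between the 2 groups. Per 100 kb of gene, peaks numbered 4.71 in Itga11, 4.18 in Itgb5 and 1.18 in Itgav, against 1.64 over all protein-coding genes of at least 20 kb, 26.5 in Cd44 and 47.2 in Fn1. The 1.64 pools all peaks over all bases of these genes, and their median was 1 peak inside and a covered share of 0.213%. Itgav, with 1 peak and 0.383%, was thus not below the median long gene.

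**Figure D4:**
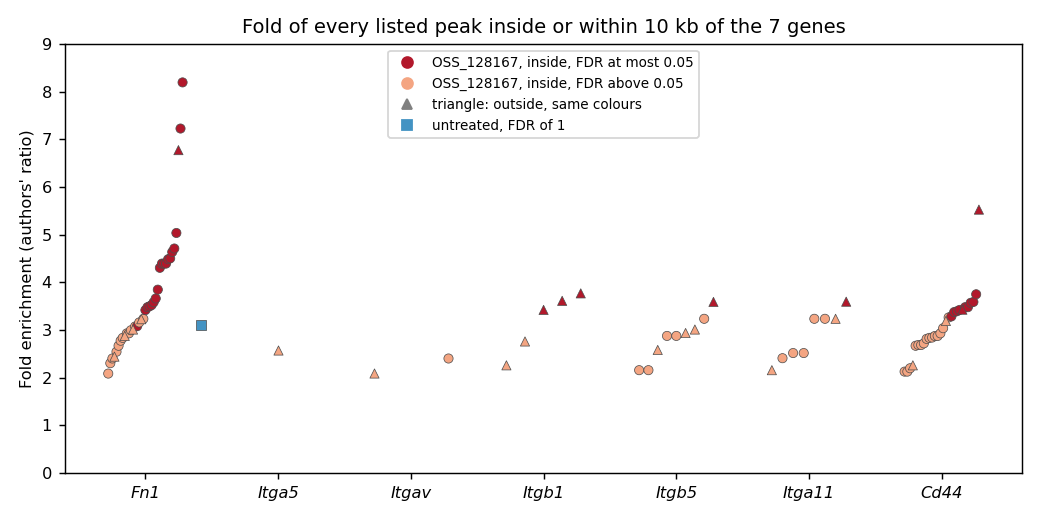
Authors' fold enrichment (vertical axis, a ratio within its own list) of each listed peak inside (circles) or within 10 kb of (triangles) each gene, with dark red for an OSS_128167 peak at an FDR of at most 0.05, light red for one above it and a blue square for the untreated peak. Folds above 6 occur at Fn1 alone, and the highest receptor peak is the one past Cd44 at 5.52.

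Outside the genes, OSS_128167 peaks lay mostly past the transcript end. For the 6 genes with a strand in the table, 16 peaks lay wholly outside within 10 kb downstream and 2 upstream. Downstream peaks were found at 5 of the 6, Itga5 being the one without, and upstream peaks at 2 of the 6, Itga5 and Itga11. The same direction was found over all 7948 genes of at least 20 kb with a strand, of which 28.9% had a downstream and 11.6% an upstream peak. It was also found over 1145 such genes with no other annotated gene within 10 kb, at 23.1% and 9.34%. The lean towards the transcript end was thus shared with long genes of this list in general. Of the 16 downstream peaks 7 had an FDR of at most 0.05, and 8 touched no other annotated gene. The untreated list had no peak outside these genes within 10 kb.

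The strongest downstream peak of Itgb5 and of Itga11 had more support than any peak inside the same gene. At Itgb5 a peak of 462 bp lay 3.45 kb past the end, with a fold of 3.59 and an FDR of 0.0339. The 3 further peaks on that side touched Umps, a pyrimidine synthesis gene on the opposite strand that was covered over 5.17%. At Itga11 a peak of 226 bp lay 1.95 kb past the end, with a fold of 3.59 and an FDR of 0.05, just inside the limit, and it touched no annotated gene. At Itgav the 1 downstream peak, 3.21 kb past the end, had a fold of 2.11 and an FDR of 0.966.

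Support for single peaks was counted over all peaks at these genes. Of the 90 OSS_128167 peaks inside or within 10 kb of the 7 genes, 36 had an FDR of at most 0.05 (40.0%), against 16.1% of that whole list. Fn1 had 20 of 37 and Cd44 11 of 28. Itgb1, which had no peak inside, had 3 of 5, Itgb5 1 of 9, Itga11 1 of 8, Itgav 0 of 2 and Itga5 0 of 1. The 5 such peaks of Itgb1, Itgb5 and Itga11 all lay downstream of the gene. At an FDR of at most 1e-05, peaks remained at Fn1, with 4 inside and the long one below it, and at Cd44, with the 1 past its end.

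Across the wider integrin family covered shares reached at most 1.58% in the OSS_128167 list. The shares to read its counts against are 34.4% of protein-coding genes and 54.5% of those of at least 20 kb with a peak inside, and 9.97% and 14.2% with one at an FDR of at most 0.05. Of 18 alpha chain genes 11 had a peak inside and 2 had one at that limit. The median covered share was 0.287%, against 0% over all protein-coding genes and 0.213% over those of at least 20 kb. The highest were Itga7, a laminin receptor chain, at 1.58%, Itga11 at 1.42%, Itga2b, a platelet chain, at 1.20%, and Itgae, a lymphocyte chain, at 0.831%. The highest fold was 3.88 at Itgae (FDR 0.0145), followed by 3.59 at Itgad (FDR 0.05) and 3.23 at Itga9 (lowest FDR 0.159). Of 8 beta chain genes 3 had a peak inside and 0 at an FDR of at most 0.05, with a median of 0%. These were Itgb7 at 1.58%, Itgb5 at 1.06% and Itgb3, the partner of alphav in a vitronectin receptor, at 0.362%. No integrin gene had an untreated peak inside. In that list 2.17% of protein-coding genes had one, and 4.11% of those of at least 20 kb.

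Genes that act with fibronectin and its receptors were covered more at some members. In the focal adhesion list, proteins that join integrins to actin, 16 of 22 had a peak inside, against 34.4% of all and 54.5% of long genes, and 8 at an FDR of at most 0.05, against 9.97% and 14.2%, with a median covered share of 0.574%. Tgfb1i1, a paxillin relative, was covered over 17.0% (fold 5.03), and Flna, an actin crosslinker, over 15.3% (4.67). Ilk, a scaffold at integrin tails, was covered over 6.08% (3.36) by 1 peak with an FDR of 0.0844. Actn1, an actin crosslinker, was covered over 4.61% (4.31). Nedd9, an adhesion docking protein, had a fold of 3.95 over 0.323%. In the list of fibronectin assembly and other receptors 10 of 14 had a peak inside and 3 at an FDR of at most 0.05, against the same shares, with a median of 0.363%. Sdc4, a heparan sulfate co-receptor for fibronectin, was covered over 30.2% with a fold of 5.04 (FDR 3.89e-06), and Thbs1, a matricellular protein, over 57.4% with 4.78. Emilin1 was covered over 9.84% by 1 peak with an FDR of 0.377. Tnc, which binds fibronectin, was covered over 8.24% (fold 4.81, lowest FDR 7.01e-05). Fbn1, the microfibril protein, was covered over 0.113% (fold 3.17, FDR 0.101). Untreated peaks inside were listed for 2 of these 14, Tnc and Dcn, and for none of the focal adhesion list. The untreated shares are 2.17% of all and 4.11% of long genes. Dcn, a small proteoglycan, had 1 untreated peak inside (fold 3.49, FDR 1) and no OSS_128167 peak inside or within 10 kb.

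Genes of the hyaluronan axis, which supplies and connects the ligand of CD44, had a peak inside in 7 of 12 cases, against 34.4% of all and 54.5% of long genes. At an FDR of at most 0.05 there were 2, against 9.97% and 14.2%. The median covered share was 0.411%. Has1, a hyaluronan synthase, was covered over 11.1% with a fold of 4.31 (FDR 0.000134), and Has3, another synthase, over 7.28% (lowest FDR 0.377). Msn and Ezr, which tie CD44 to actin, were covered over 1.63% and 1.30%, with a lowest FDR of 0.377 and 0.00776. Their relative Rdx had a fold of 3.31 (FDR 0.071). Cemip, which takes part in hyaluronan breakdown, had a fold of 3.11 (lowest FDR 0.183). Has2 had no peak within 10 kb in either list. No gene of this list had an untreated peak inside or within 10 kb, against 3.13% of all and 4.95% of long genes.

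Markers of the labelled cell type had peaks in part, and the counts of marker genes are to be read against the same 34.4% and 54.5% with a peak inside and 9.97% and 14.2% at an FDR of at most 0.05. Of 10 osteoblast genes 5 had an OSS_128167 peak inside (Runx2, Sp7, Col1a1, Col1a2 and Phex), with 3 at that limit, while Alpl, Bglap, Ibsp, Spp1 and Dmp1 had none. Of 10 leukocyte genes 4 had one (Ptprc, Itgam, Adgre1 and Cd68), 2 of them at that limit. Cd68, a macrophage marker gene of 1958 bp, was covered over 81.6% (highest fold 4.39, lowest FDR 5.34e-05). It had 2 peaks inside, 5 inside or within 10 kb, and a gene-end peak. Genes next to Cd68 were not examined, so whether these peaks belong to a neighbouring gene was not tested. Coverage of at least 50% was found in 149 protein-coding genes, only 5 of them of at least 20 kb, so such shares lie mostly in shorter genes. Ptprc, Itgam and Adgre1 were covered over 0.213%, 0.614% and 0.67%. Among the osteoblast genes Col1a1 was covered over 98.2%, Col1a2 over 97.4%, Sp7 over 8.48%, Runx2 over 8.40% and Phex over 0.121%. Inside Sp7 and Phex the lowest FDR was 0.377 and 0.191. The leukocyte integrin genes Itgax, Itgal and Itgb2 had no peak inside. Of 8 endothelial genes 4 had one (Pecam1, Kdr, Tek and Esam), with 0 at that limit, and of 8 epithelial genes 0 had one. In the untreated list 2 osteoblast genes had a peak inside and 0 of the other markers. There the shares with a peak inside are 2.17% of all and 4.11% of long genes. Whether other cells contribute to the peaks at the 7 genes was not tested.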

How the data were processed

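Peak lists of 2 Pol II libraries were analysed, 1 without and 1 with OSS_128167. Per the submitters' processing notes, fastp, BWA and the build mm10 were used. How peaks were called, and whether the inputs entered, is not given in the sources used here. For every peak the deposited lists hold 1-based coordinates and the authors' fold enrichment, which is a ratio. They further hold the authors' p-value with its FDR, and a pileup signal, all made per library. The deposited largest p-value of a peak was 0.00956 and 0.00999, so the lists are permissive. Neither list holds read totals, so the depth is unknown.

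Gene boundaries came from RefSeq GRCm38.p6, the assembly behind mm10, without exons. Strand came from the RefSeq promoter table, which held 6 of the 7 genes and 17492 of 21887 protein-coding genes. Overlap required 1 bp, and covered share is the union of peaks over gene length. The interval counts were tested on simulated data. Samples were grouped by title. Python 3.11.15, numpy 2.4.6, pandas 2.3.3 and matplotlib 3.10.9 were used. The genes and lists were chosen with earlier results of these data known. Named genes are the 7, the up to 4 of each pathway list with the highest covered share and the highest fold, markers with a peak inside, neighbours, and 5 genes most like Fn1 in profile; Dcn, Has2 and markers without a peak were named after their values were seen. Alternatives were FDR limits, flank size, peak centre and overlap.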

Additional observations from a re-analysis of the deposited data

How the results depend on the processing

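The order of the genes by covered share held with Fn1 first and Cd44 second at an FDR of at most 0.05, where the OSS_128167 shares were 53.7% for Fn1, 3.94% for Cd44 and 0% for Itgav, Itgb5 and Itga11. At an FDR of at most 1e-05 Fn1 had 34.9% and Cd44 had 0%, as had Itgav, Itgb5 and Itga11. With the 10 kb flanks included the shares were 58.2% for Fn1, 11.2% for Cd44, 2.48% for Itgb1, 1.97% for Itga11, 1.84% for Itgb5, 0.546% for Itgav and 0.532% for Itga5, so Itgb1 then came next after Cd44. Genes with a peak inside or within 10 kb numbered 2 in the OSS_128167 list at 1e-05, and 1 had a gene-end peak. In the untreated list both FDR limits left 0 genes and a covered share of 0% for Fn1, and with flanks that share was 0.232%. The 1 shared position was also found when an overlap of 50% of the shorter peak was required. Chosen after seeing the data, the removal of peaks that touch another gene left 8 of the 16 downstream and 2 of 2 upstream peaks, and an FDR of at most 0.05 left 7 and 0. No paired analysis was possible because each condition has 1 library. Read depth cannot be checked, so a gene without a listed peak may still carry Pol II below the level of detection.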
